A study of Mus musculus with 6 samples.

Results

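The transcripts described here are those of 49 type I interferon-stimulated genes. They were chosen by name from a list of symbols among the 18058 genes of the deposited table. That list was chosen with earlier results of these data known, so its counts beside the shares of all genes are a description. All 49 were found, and all 49 had a mean of at least 0.1 CPM (counts of a gene scaled to the library's total) over the 6 libraries, the level needed to enter the comparison, as did 16762 genes in all. They were measured by RNA sequencing of total RNA from frozen brainstem, taken whole from uninjected mice aged 1 month, in 3 samples of the wild type strain C57BL/6J (WT) and 3 of Rag1-/-, each from a separate animal. Rag1 encodes a subunit of the recombinase that joins antigen receptor gene segments, and mice without it have no mature T or B cells. The Rag1-/- strain named in the study's methods is B6.129S7-Rag1tm1Mom/J, a germline targeted allele carried by every cell, so a difference between the groups is not tied to any cell type. The study used this comparison to look for brainstem transcripts that differ in a host that accepts human glioma-initiating cells.

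Type I interferons bind a receptor of IFNAR1 and IFNAR2 chains, and the kinases JAK1 and TYK2 then phosphorylate STAT proteins, among them STAT2. STAT2 and IRF9 are subunits of ISGF3, a transcription factor that binds interferon-stimulated response elements and turns on a large set of antiviral genes. In the uninfected brain, microglia, astrocytes, endothelial cells and neurons keep a low level of this program, and it depends on tonic interferon signalling.

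The labels were examined before the comparison. Rag1 transcripts measured 0.236, 0.388 and 0.115 CPM in WT (replicates 1, 2, 3) and reached 2.60, 4.02 and 2.90 CPM under the Rag1-/- label, so the targeted gene was higher, not lower, in the latter (adjusted p = 0.012 by limma-trend). They are therefore called libraries labelled Rag1-/-, and each direction below rests on that label. Xist reached 172 and 177 CPM in replicates 1 and 2 of WT but was at 2.93 CPM or less in the other 4 libraries, and the Y-linked Ddx3y was at 0.283 CPM or less in the former and at 45.2 CPM or more in the latter. Sex-linked transcripts thus differed within the WT group, and WT replicate 3 was the only WT library that matched the libraries labelled Rag1-/- in these transcripts. All 9 brainstem markers examined, such as Dbh and Tph2, passed the filter and none had an unadjusted p of at most 0.05. Replicate 2 labelled Rag1-/- nevertheless stood apart in Hox genes, which mark position along the hindbrain. Its Hoxb5 was 0.856 CPM, where replicates 1 and 3 of that label had 14.3 and 12.4 CPM and WT had 4.77 to 9.76 CPM. Hoxb3 (0.412 CPM, 2.501 or more elsewhere) and Hoxa3 (0.0951 CPM, 1.11 or more elsewhere) were also lowest there. Without this library 28 of the 49 interferon-stimulated genes were lower at an unadjusted p of at most 0.05 and 1, Rsad2, was higher, where 8.23% of all tested genes were lower and 2.04% higher, and the part of dissection in the values was not tested. The depth of each library, estimated from the step that 1 read makes among low values, lay between 31200000 and 46100000 reads. By that step, 3 reads correspond to 0.0651 to 0.0961 CPM, and the lowest value of any interferon-stimulated gene in any library was 0.135 CPM. This floor covers counting error only.

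Interferon-stimulated transcripts were lower in the libraries labelled Rag1-/- across most of the list. In those libraries 47 of the 49 had a lower mean on the log2(CPM + 0.1) scale, a direction shared by 67.7% of all tested genes. With limma-trend, 32 of the 49 were lower at an unadjusted p of at most 0.05 and none was higher, where 9.29% of all tested genes were lower and 2.27% higher at this threshold. With median-of-ratios rescaling these shares of all genes were 4.31% lower and 4.81% higher, and 29 members were lower and 0 higher. With quantile normalization they were 3.82% and 5.1%, and 26 members were lower and 0 higher. Adjusted over all tested genes, 2 of the 49 members passed at 0.05, Ifit3 and Oasl2, where 0.0477% of all tested genes passed in either direction and 0.0358% passed as lower. Neither gene passed in 9 of the 10 alternative fits to all 6 libraries, nor in 4 of the 6 fits that left out a library. In 33 members every library labelled Rag1-/- was under every WT library, a separation that 14.4% of all tested genes showed, and none was separated in the opposite direction (3.98% of all tested genes). In an exact permutation test (two-sided) p was 0.1 for all 33, and 3 samples against 3 allow no smaller value. The median log2 fold change of the 49 was -0.41, from -1.07 for Ifit1 to 0.19 for Rsad2, and that of all tested genes was -0.05. In whole tissue, fewer cells of a type and less RNA per cell cannot be told apart.

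**Figure D1:**
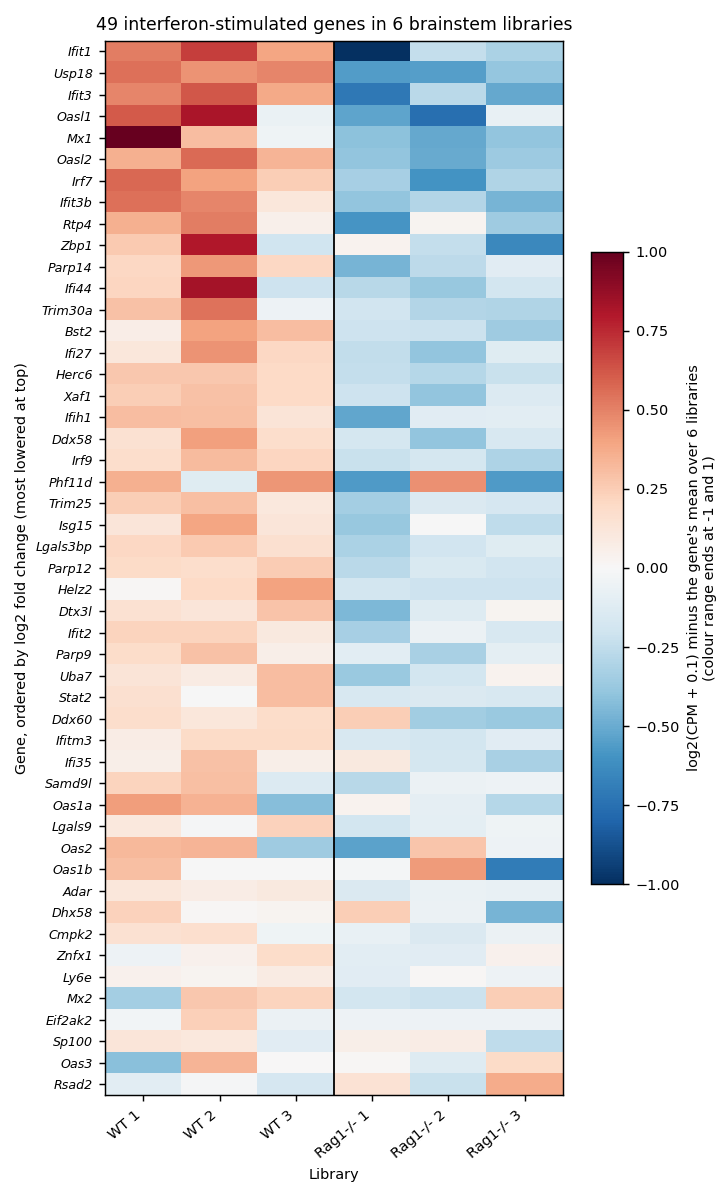
Each row is an interferon-stimulated gene, ordered by log2 fold change, and each column a library. Colour is log2(CPM + 0.1) minus that gene's mean over the 6 libraries, with red above and blue below the mean, and the black line divides the WT libraries from those labelled Rag1-/-. Most rows are red on the left and blue on the right, and the bottom rows, such as Oas3 and Rsad2, are mixed.

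The 3 transcription factors of the list, Stat2, Irf9 and Irf7, all passed the unadjusted threshold as lower (9.29% of all tested genes). Irf7, which amplifies interferon production and response, had 5.76, 5.10 and 4.57 CPM in WT replicates 1, 2 and 3, against 3.03, 2.503 and 3.10 CPM under the Rag1-/- label, in the same replicate order as in every list of values that follows. The log2 difference came to -0.82 with a standard error of 0.13 (adjusted p = 0.165 by limma-trend). Irf9, the DNA-binding subunit of ISGF3, was at 9.27, 10.3 and 9.51 CPM in WT and 7.02, 7.25 and 6.61 CPM under the Rag1-/- label. This was -0.47 on the log2 scale (standard error 0.08). Stat2 was at 19.6, 17.4 and 21.7 CPM against 15.7, 15.8 and 15.6 CPM, which is a smaller difference of -0.31 on the log2 scale (standard error 0.08). The groups did not overlap for any of these factors (14.4% of all tested genes), although the lowest WT library, replicate 2 for Stat2, lay within 2 CPM of the libraries labelled Rag1-/-.

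The IFIT proteins bind foreign RNA and block its translation, and the mouse genes lie together on chromosome 19. All 4 measured members had their 3 lowest values in the libraries labelled Rag1-/-, as did 14.4% of all tested genes. Ifit3 (chromosome 19, 34583529 to 34588982, plus strand) fell from 15.3, 16.8 and 14.2 CPM in WT to 6.597, 8.99 and 7.61 CPM, or from 15.4 ± 1.32 to 7.73 ± 1.20 CPM (SD, n = 3 in each group). Its log2 fold change was -0.99 with a standard error of 0.12 (adjusted p = 0.0443 by limma-trend), so its mean level was 50.2% of that in WT. Over the alternatives of the closing section its adjusted p ranged from 0.0281 to 0.341. Ifit1 was at 4.30, 4.90 and 3.97 CPM in WT and 1.39, 2.52 and 2.38 CPM under the Rag1-/- label. The difference, -1.07 on the log2 scale, was the most negative of the 49 (adjusted p = 0.238 in limma-trend, standard error 0.21). Ifit3b was at 8.37, 8.05 and 6.17 CPM against 4.32, 4.63 and 4.09 CPM, with a log2 fold change of -0.77. Ifit2, at 11.8, 11.8 and 10.8 CPM in WT and 8.03, 9.73 and 9.05 CPM, showed the smallest difference of the family at -0.36. Ifit3 and Ifit3b are near-identical copies, and 51.2% of the 50-base stretches of the Ifit3 transcript also occur in Ifit3b, so reads could have been split between them in either direction.

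The promoters of these genes were read from RefSeq sequences of GRCm38.p6, the mm10 build, as 250 bases before to 50 bases after a start site. They were searched for GAAA, then any 2 bases, then GAAA, the core of the interferon-stimulated response element, on both strands, with overlapping matches counted. Of the 49 genes, 37 had a promoter in the RefSeq table used here, and 16 of the 37 (43.2%) held a match, where 3.99% of 27025 genes did. The share was 44.0% (11 of 25) for the members lower at an unadjusted p of at most 0.05 and 41.7% (5 of 12) for the other members. Stretches of 80 bases around the matches are shown for Ifit3, Ifit3b and Ifit1, which stood among the lowest relative to WT, for the lower genes Isg15, Bst2, Ifitm3 and Stat2, and for Rsad2 and Eif2ak2, which did not pass. Capitals mark the matches, and each sequence is read along the strand of its gene, 5′ to 3′.
Ifit3 (chr19:34583355-34583434, plus strand): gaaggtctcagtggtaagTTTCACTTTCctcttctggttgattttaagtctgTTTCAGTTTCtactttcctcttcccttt
Ifit3b (chr19:34607751-34607830, plus strand): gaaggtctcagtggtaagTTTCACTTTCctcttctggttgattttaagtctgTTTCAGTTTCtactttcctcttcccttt
Ifit1 (chr19:34640759-34640838, plus strand): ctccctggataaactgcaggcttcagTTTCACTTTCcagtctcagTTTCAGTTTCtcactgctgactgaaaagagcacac
Isg15 (chr4:156200846-156200925, minus strand): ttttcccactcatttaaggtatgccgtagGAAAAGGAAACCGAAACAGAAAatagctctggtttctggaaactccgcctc
Bst2 (chr8:71537555-71537634, minus strand): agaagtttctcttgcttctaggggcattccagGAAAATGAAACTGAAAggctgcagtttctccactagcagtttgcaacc
Ifitm3 (chr7:141010695-141010774, minus strand): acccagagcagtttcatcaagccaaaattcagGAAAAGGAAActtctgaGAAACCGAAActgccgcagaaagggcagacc
Stat2 (chr10:128270248-128270327, plus strand): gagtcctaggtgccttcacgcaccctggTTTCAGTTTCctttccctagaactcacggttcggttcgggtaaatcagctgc
Rsad2 (chr12:26456528-26456607, minus strand): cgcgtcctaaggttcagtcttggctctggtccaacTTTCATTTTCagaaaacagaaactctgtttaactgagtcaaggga
Eif2ak2 (chr17:78882523-78882602, minus strand): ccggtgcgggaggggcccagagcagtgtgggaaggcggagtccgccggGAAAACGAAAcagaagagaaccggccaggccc
The stretches of Ifit3 and Ifit3b were identical at 80 of 80 bases, within an identical run of 169 bases. A match was present both in genes that were lower and in genes that were not, as in Rsad2 and Eif2ak2. Oasl2, the other member with an adjusted p under 0.05, held no match in its 300 bases, shown here for contrast, which says only that these letters are not in this window.
Oasl2 (chr5:114896684-114896983, plus strand): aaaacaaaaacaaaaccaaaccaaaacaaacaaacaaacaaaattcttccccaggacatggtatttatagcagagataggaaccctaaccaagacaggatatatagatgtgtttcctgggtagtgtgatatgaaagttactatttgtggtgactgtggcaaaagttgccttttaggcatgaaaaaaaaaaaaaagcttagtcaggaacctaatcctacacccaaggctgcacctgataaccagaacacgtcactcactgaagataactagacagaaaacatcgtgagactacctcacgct

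Enzymes of the OAS family make short oligoadenylates that activate the ribonuclease RNase L, and Oasl1 and Oasl2 belong to the same family. Only Oasl1 and Oasl2 passed the unadjusted threshold (2 of 6, against 9.29% of all tested genes). Oasl2 (chromosome 5, 114896934 to 114912245, plus strand) fell from 6.91, 8.03 and 6.84 CPM in WT to 4.07, 3.77 and 4.16 CPM under the Rag1-/- label, or from 7.26 ± 0.669 to 4 ± 0.203 CPM (SD, n = 3 in each group). Its log2 fold change was -0.84 with a standard error of 0.10 (adjusted p = 0.0443 by limma-trend, from 0.0340 to 0.328 over the alternatives). Oasl1 was low in all libraries, at 0.566, 0.668 and 0.316 CPM in WT and 0.202, 0.159 and 0.313 CPM, so that WT replicate 3 and replicate 3 labelled Rag1-/- nearly met. The estimate of -0.91 on the log2 scale had a standard error of 0.31. Oas1a, Oas1b, Oas2 and Oas3 overlapped between the groups. Oas2 was at 0.661, 0.668 and 0.374 CPM in WT and 0.318, 0.634 and 0.484 CPM under the Rag1-/- label. Oas1b was at 0.459, 0.352 and 0.352 CPM against 0.347, 0.507 and 0.179 CPM. Oas3 was at 0.189, 0.388 and 0.288 CPM against 0.289, 0.254 and 0.342 CPM, with a log2 fold change of 0.05 and a standard error of 0.27. Oas1a was at 1.33 ± 0.417 CPM in WT and 1.09 ± 0.132 CPM (SD, n = 3 in each group), and 57.6% of the 50-base stretches of its transcript also occur in its paralog Oas1g. Whether Oasl1 and Oasl2 differed more than the other members of the family was not tested.

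Isg15 is a ubiquitin-like protein that is joined to other proteins by the activating enzyme Uba7 and the ligase Herc6 and removed by Usp18, which also dampens signalling from the type I interferon receptor. Usp18 was at 3.04, 2.82 and 2.90 CPM in WT and 1.36, 1.36 and 1.54 CPM under the Rag1-/- label. The groups were far apart relative to their spread, differing by -0.99 on the log2 scale (standard error 0.13), and the adjusted p was 0.0566 by limma-trend, from 0.0473 to 0.356 over the alternatives. Herc6 was at 3.49, 3.49 and 3.31 CPM against 2.43, 2.34 and 2.45 CPM, a log2 difference of -0.49. Isg15 itself was at 3.02, 3.66 and 3.02 CPM against 2.11, 2.76 and 2.31 CPM, a log2 difference of -0.42. Uba7 was at 1.91, 1.85 and 2.18 CPM in WT and 1.33, 1.52 and 1.79 CPM, which did not overlap although the unadjusted p was 0.0570 by limma-trend. All 4 genes of the ISG15 pathway were separated between the groups (14.4% of all tested genes), and 3 of 4 passed the unadjusted threshold (9.29% of all tested genes as lower). The call for Isg15 held in 12 of the 16 alternatives.

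**Figure D2:**
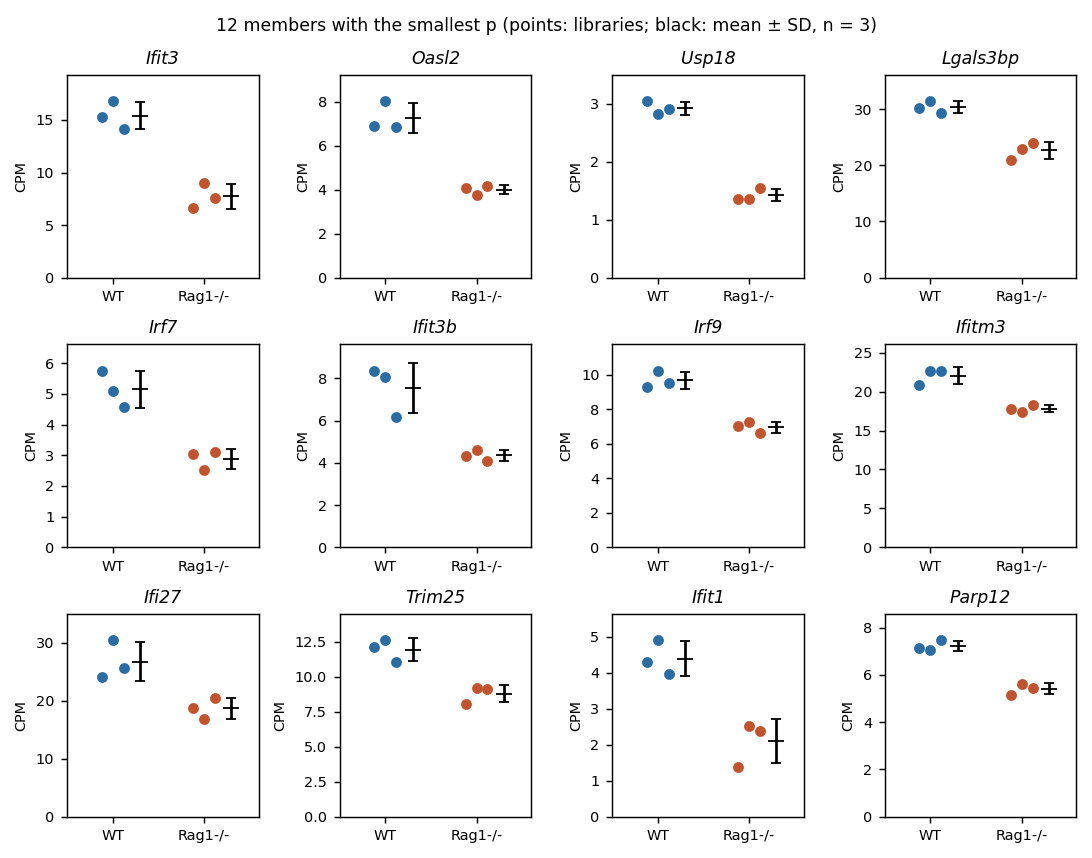
The 12 interferon-stimulated genes with the smallest p are plotted in CPM on axes that start at 0, with a point for each of the 3 WT (blue) and 3 libraries labelled Rag1-/- (orange) and the mean ± SD in black. In each panel the points of the groups do not overlap, which a choice by smallest p favours, and 14.4% of all tested genes were separated as lower. Ifit3 goes from 15.4 to 7.73 CPM on average.

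Of 9 members that sense or edit foreign or self nucleic acid, 4 were lower at the unadjusted threshold, as were 9.29% of all tested genes, and 5 did not pass. Trim25, a ubiquitin ligase that acts on RIG-I, was at 12.1, 12.6 and 11.0 CPM in WT and 8.06, 9.22 and 9.08 CPM under the Rag1-/- label. Ddx58, which encodes the RNA sensor RIG-I, was at 5.404, 6.48 and 5.49 CPM against 4.30, 3.68 and 4.33 CPM. Ifih1, which encodes the related sensor MDA5, was at 5.31, 5.26 and 4.66 CPM against 2.95, 3.93 and 3.96 CPM. These genes had log2 fold changes of -0.44 (Trim25) and -0.49 (Ddx58 and Ifih1), with adjusted p of 0.238, 0.3 and 0.335 by limma-trend. Adar, an enzyme that edits adenosines in RNA duplexes, had the highest counts of the list, at 207, 202 and 205 CPM in WT and 174.0, 183 and 182 CPM. This was a small difference, to 87.8% of the WT level, but the libraries of each group lay within 10 CPM of each other and the log2 fold change was -0.19 with a standard error of 0.04. Adar overlaps Chrnb2, and Znfx1 overlaps Zfas1, on the opposite strand. Znfx1, a helicase, was at 51.7, 55.1 and 61.0 CPM in WT and 49.9, 49.7 and 55.2 CPM, so that the groups overlapped at replicate 3 labelled Rag1-/-. Dhx58, which encodes the third RIG-I-like receptor, LGP2, and Eif2ak2, which encodes the RNA-dependent kinase PKR, did not pass (log2 fold changes -0.18 and -0.10). Zbp1, a sensor of left-handed nucleic acid, and the helicase Ddx60 were both under 1 CPM in every library and did not pass either, with log2 fold changes of -0.57 and -0.31.

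Of 8 antiviral effectors, 5 were lower at the unadjusted threshold (9.29% of all tested genes). Ifitm3, a membrane protein that hinders fusion of viruses with cells, was at 20.8, 22.7 and 22.7 CPM in WT and 17.7, 17.4 and 18.3 CPM under the Rag1-/- label. Bst2 (tetherin), which holds budding virus at the cell surface, was at 5.17, 6.57 and 6.15 CPM against 4.27, 4.25 and 3.84 CPM. These differences were -0.31 and -0.52 on the log2 scale. Ly6e, an abundant lipid-anchored surface protein, was at 119.5, 118.2 and 122.7 CPM against 107.1, 116.5 and 112.0 CPM, the smallest difference among those that passed (-0.10), and a call held in 5 of the 16 alternatives. The dynamin-like GTPase Mx1 was low, at 0.593, 0.315 and 0.224 CPM in WT and 0.152, 0.135 and 0.155 CPM. Its log2 fold change of -0.88 had a standard error of 0.32, and WT replicate 1 alone was over 0.5 CPM. Its call held in 10 of the 15 alternatives that tested it. Its paralog Mx2 was at 0.941, 1.49 and 1.44 CPM against 1.06, 1.04 and 1.47 CPM, with the groups fully intermixed. Samd9l did not pass (-0.26).

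The neighbouring genes Cmpk2 and Rsad2 on chromosome 12 gave different values. Cmpk2, a nucleotide kinase, was at 25.8, 26.1 and 22.5 CPM in WT and 22.1, 21.0 and 22.4 CPM under the Rag1-/- label. WT replicate 3 and replicate 3 labelled Rag1-/- were nearly equal, and the log2 fold change was -0.18 (standard error 0.07), a call held in 6 of the 16 alternatives. Rsad2 (viperin), an enzyme that makes a chain-terminating nucleotide, was at 3.56, 3.79 and 3.39 CPM in WT and 4.25, 3.26 and 4.98 CPM. Rsad2 was the member with the most positive log2 fold change, 0.19 with a standard error of 0.15, and it did not pass (adjusted p = 0.642 by limma-trend). The difference between these 2 genes was not tested.

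The ADP-ribosyltransferases Parp9, Parp12 and Parp14 and Dtx3l, a ubiquitin ligase that works in a complex with Parp9, were all lower in every library labelled Rag1-/- (4 of 4, against 14.4% of all tested genes). Parp12 was at 7.15, 7.06 and 7.47 CPM in WT and 5.17, 5.61 and 5.47 CPM, with narrow spreads in both groups. Parp14 was at 4.60, 5.41 and 4.60 CPM against 2.86, 3.29 and 3.67 CPM. Their log2 fold changes were -0.41 and -0.56. Parp9 was at 3.85, 4.16 and 3.53 CPM against 3.12, 2.67 and 3.14 CPM. Dtx3l was at 5.23, 5.11 and 5.73 CPM against 3.40, 4.27 and 4.77 CPM. The log2 fold changes of this pair were -0.36 and -0.37. Parp9 and Dtx3l overlap on opposite strands, and whether the reads were counted by strand is not given in the sources used here, so their values may share reads.

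**Figure D3:**
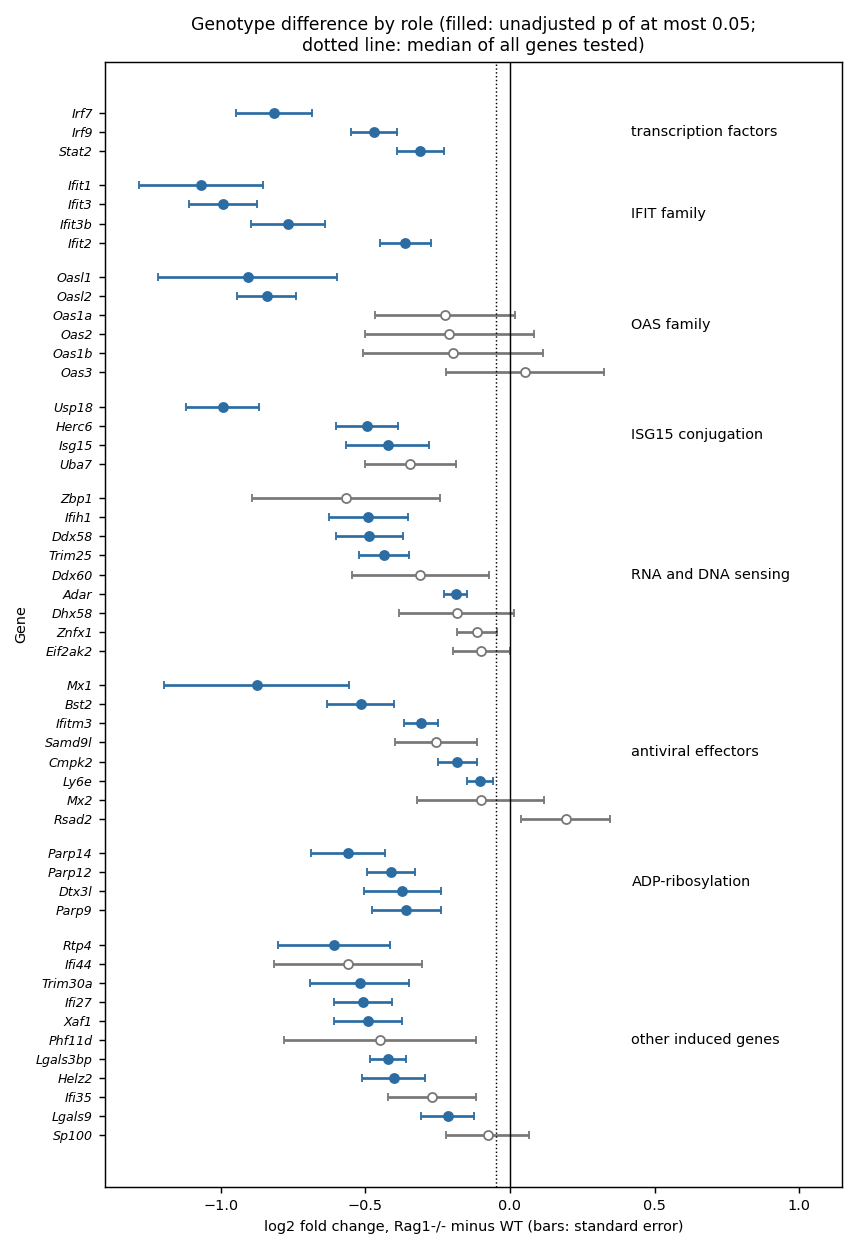
Points are the log2 fold changes of the 49 genes, libraries labelled Rag1-/- minus WT, with bars of 1 standard error, grouped by role. Filled points passed the unadjusted threshold of 0.05 and the dotted line is the median of all tested genes (-0.05). All points of the transcription factors, the IFIT family and the ADP-ribosylation group are filled, and Rsad2 and Oas3 lie to the right of 0.

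Of the other 11 induced genes, 7 were lower at the unadjusted threshold (9.29% of all tested genes). Lgals3bp, a secreted glycoprotein that binds galectins, was at 30.2, 31.4 and 29.3 CPM in WT and 21.0, 22.97 and 24.0 CPM under the Rag1-/- label (log2 fold change -0.42, standard error 0.06, adjusted p = 0.127 by limma-trend). Ifi27 was at 24.1, 30.5 and 25.7 CPM against 18.7, 16.9 and 20.6 CPM. It overlaps Ifi27l2a on the opposite strand, which was also lower. Xaf1, which opposes an inhibitor of apoptosis, was at 3.52, 3.64 and 3.39 CPM against 2.54, 2.22 and 2.68 CPM. Helz2, a transcriptional coactivator, was at 6.80, 7.75 and 8.94 CPM against 5.92, 5.83 and 5.84 CPM. Their log2 fold changes lay between -0.51 for Ifi27 and -0.40 for Helz2. Rtp4 was at 2.76, 3.08 and 2.21 CPM in WT and 1.39, 2.19 and 1.65 CPM, where WT replicate 3 and replicate 2 labelled Rag1-/- were nearly equal. Trim30a was at 2.34, 2.80 and 1.82 CPM against 1.64, 1.53 and 1.52 CPM. Lgals9, a galectin, was at 7.79, 7.17 and 8.54 CPM against 6.38, 6.75 and 7.03 CPM. These were separated by narrower margins, and the call for Lgals9 held in 7 of the 16 alternatives. Sp100, a component of nuclear bodies, was at 2.71, 2.69 and 2.30 CPM against 2.60, 2.63 and 2.07 CPM, with a log2 fold change of -0.08. Ifi44, Ifi35 and Phf11d did not pass either, with log2 fold changes of -0.56, -0.27 and -0.45.

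Calls were also counted by level, and the difference between levels was not tested. Of the 41 members that averaged 1 CPM or more, 30 were lower at the unadjusted threshold (73.2%, against 10% of all tested genes at this level), and of the 8 with a mean under 1 CPM, 2 were (25.0%, against 5.57%). Their median log2 fold changes were -0.41 and -0.38. Per kilobase of exon, the highest WT levels were 48.8 CPM for Ly6e, 34.1 for Adar, 32.6 for Ifitm3 and 26.1 for Ifi27, and the lowest was 0.0610 for Oas3. Among the libraries, WT replicate 2 had the highest CPM in 26 of 49 members (18.9% of all tested genes), and WT replicates 1 and 3 in 9 each (20.1% and 28.7%). Replicates 1, 2 and 3 labelled Rag1-/- had it in 2, 2 and 1 members (13.1%, 10.8% and 8.44% of all tested genes). The mean deviation of the members from their own averages, on the log2(CPM + 0.1) scale, was 0.22, 0.30 and 0.11 in the WT libraries and -0.25, -0.19 and -0.20 in those labelled Rag1-/-. No member lies on a sex chromosome or within 10 Mb of Rag1.

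Since Xist-high libraries occurred in the WT group only, the members were also read in WT replicate 3, the WT library low in Xist. In 34 of 49 members (69.4%) it was above all 3 libraries labelled Rag1-/-, as it was in 41.9% of all tested genes. With a term for Xist over 100 CPM in limma-trend, where the genotype difference rests on WT replicate 3 alone against the libraries labelled Rag1-/-, 24 members were lower at an unadjusted p of at most 0.05 and none was higher, and 23 of these were among the 32. In that fit 12.3% of all tested genes were lower and 3.96% higher, and 134 had an adjusted p under 0.05. Its p-values assume that WT replicate 3 varies like the other libraries, and what is particular to that animal cannot be told apart from genotype. The median of the members was -0.35 and that of all tested genes -0.05. The log2 fold change was -0.88 for Ifit3, -0.76 for Oasl2 and -0.99 for Usp18, with adjusted p of 0.0560, 0.0583 and 0.0609. Of the 32 genes, 9 no longer passed with the term: Oasl1 and Mx1 (both -0.39), Ifih1 (-0.37), Rtp4 (-0.35), Isg15 (-0.33), Parp9 (-0.24), Trim30a (-0.21), Ly6e (-0.13) and Cmpk2 (-0.05). Znfx1 (-0.24) newly passed. The values were positive for 7 members, none of which passed: Oas1a (0.31), Rsad2 (0.27), Oas2 (0.25), Sp100 (0.07), Oas3 (0.02), Eif2ak2 (0.01) and Samd9l (0.01).

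**Figure D4:**
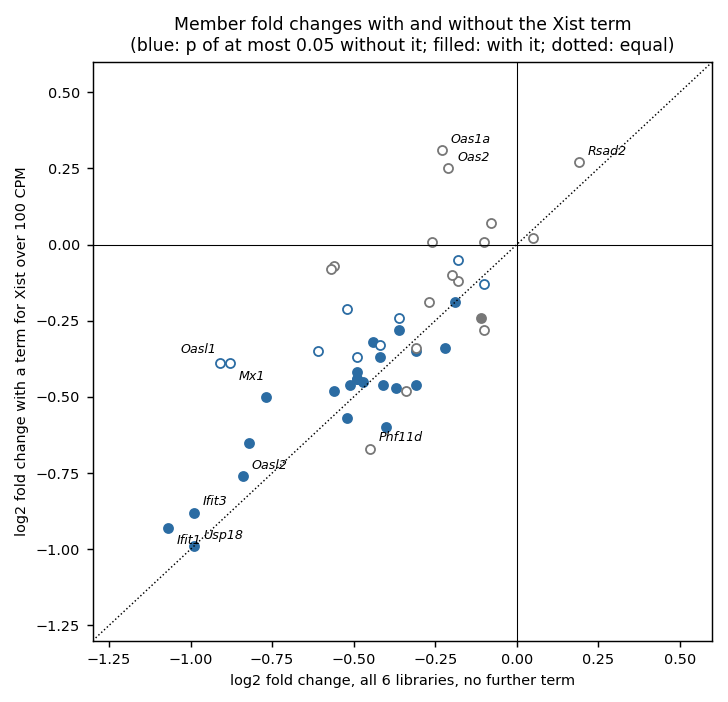
Each point is 1 of the 49 genes, with its log2 fold change in the comparison of all 6 libraries on the horizontal axis and with a term for Xist over 100 CPM on the vertical axis. Blue points had an unadjusted p of at most 0.05 without the term and filled points with it. Ifit1, Ifit3, Usp18 and Oasl2 lie near the dotted line of equal values, and Oas1a and Oas2 change sign.

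Other genes of the pathway were read from lists that do not include the members, and each count is to be read against the 9.29% of all tested genes that were lower and the 2.27% that were higher. The 21 interferon ligand genes listed were not analysed here. Of 14 receptor and JAK-STAT genes, 3 were lower at the unadjusted threshold and none higher. Among them were Ifnlr1, a chain of the type III interferon receptor (log2 fold change -0.79), and Ifngr1, a chain of the type II receptor (-0.20). The receptor chains Ifnar1 and Ifnar2 did not pass. None of 7 feedback regulators, such as Socs1 and Socs3, passed in limma-trend, and of 13 sensing adaptors and kinases only Traf3 did, with a positive log2 fold change of 0.21. Of 16 tested GBP and IRG GTPases, which act on membranes around intracellular pathogens, 5 were lower and 1, Tgtp2, was higher (log2 fold change 0.72). Of 18 genes of MHC class I and antigen processing, 9 were lower and none higher. H2-D1 fell from 68.4 ± 4.11 to 49.2 ± 2.11 CPM (SD, n = 3 in each group), with a log2 fold change of -0.47 (adjusted p = 0.0443 by limma-trend), and its reads can be shared with other class I genes. Of 50 other interferon-inducible genes tested, 16 were lower and 1 higher. Slfn2 (-0.83), Ifi209 (-1.43), the chemokine Cxcl10 (-1.43) and Xdh (-0.62) had the smallest p among them. Ifi209 reached the filter of 0.1 CPM through its WT values, as its mean under the Rag1-/- label was 0.0899 CPM. The median log2 fold change was -0.10 for the receptor and JAK-STAT list, -0.17 for the GTPases, -0.24 for the class I list and -0.21 for the other inducible genes. It was -0.05 for the feedback regulators and -0.02 for the sensing adaptors and kinases, where that of all tested genes was -0.05. All of these genes were measured in the same libraries as the members.

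Markers of cell types that carry the interferon program were compared at the same threshold, against the same 9.29% lower and 2.27% higher among all tested genes, with sums of CPM over each list given as ranges over libraries. None of 12 microglia markers, such as P2ry12 and Tmem119, passed, and their sum was 301 to 342 CPM in WT and 312 to 337 CPM under the Rag1-/- label. Of 9 astrocyte markers 1 was higher (Aqp4) and none lower, and the sum was 4279 to 4597 CPM against 4637 to 4793 CPM. Of 11 endothelial markers 1 was lower (Cdh5), which is 9.09% and near the share of all tested genes. Every library labelled Rag1-/- was under every WT library for 2 of them (18.2%, against 14.4% of all tested genes). The endothelial sum was 505.5 to 522.4 CPM against 467.6 to 504.7 CPM, without overlap. None of 6 neuron markers passed (3123 to 3526 CPM against 3035 to 3424 CPM). All 7 oligodendrocyte markers were higher, with sums of 19620 to 22790 CPM against 25350 to 26660 CPM.

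Markers of blood and border tissues were read in the same way, against the same 9.29% lower. Of 6 tested granulocyte markers 5 were lower, among them Mpo and S100a9, and the sum over the 7 listed was 4.88 to 17.8 CPM in WT and 2.60 to 5.50 CPM under the Rag1-/- label. In WT replicates 1, 2 and 3 this sum was 4.88, 11.9 and 17.8 CPM. Of 8 macrophage and monocyte markers 2 were lower (13.6 to 19.4 CPM against 12.8 to 15.5 CPM), and Ly6c2 was among them. Mpo and Ly6c2 reached the filter of 0.1 CPM through their WT values, as their means under the Rag1-/- label were 0.040 and 0.063 CPM. Of 7 meningeal markers 2 were lower (105.4 to 148 CPM against 91.8 to 116 CPM), and of 6 choroid plexus markers 2 were (482 to 1222 CPM against 548 to 626 CPM). None of 5 red blood cell markers passed (646 to 1880 CPM against 895 to 1438 CPM). Of the lymphocyte lists only 3 T cell and 3 B cell markers reached the filter, and none passed. The T cell sum was 0.852 to 1.88 CPM against 1.30 to 1.39 CPM, and the B cell sum was 0.850 to 1.18 CPM against 0.571 to 0.751 CPM, where Ms4a1 and Cd3e were under the filter. In the T cell and B cell lists, 2 markers each were at the file minimum in at least 1 library. The part of these cell types in the values of the interferon-stimulated genes was not tested.

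**Figure D5:**
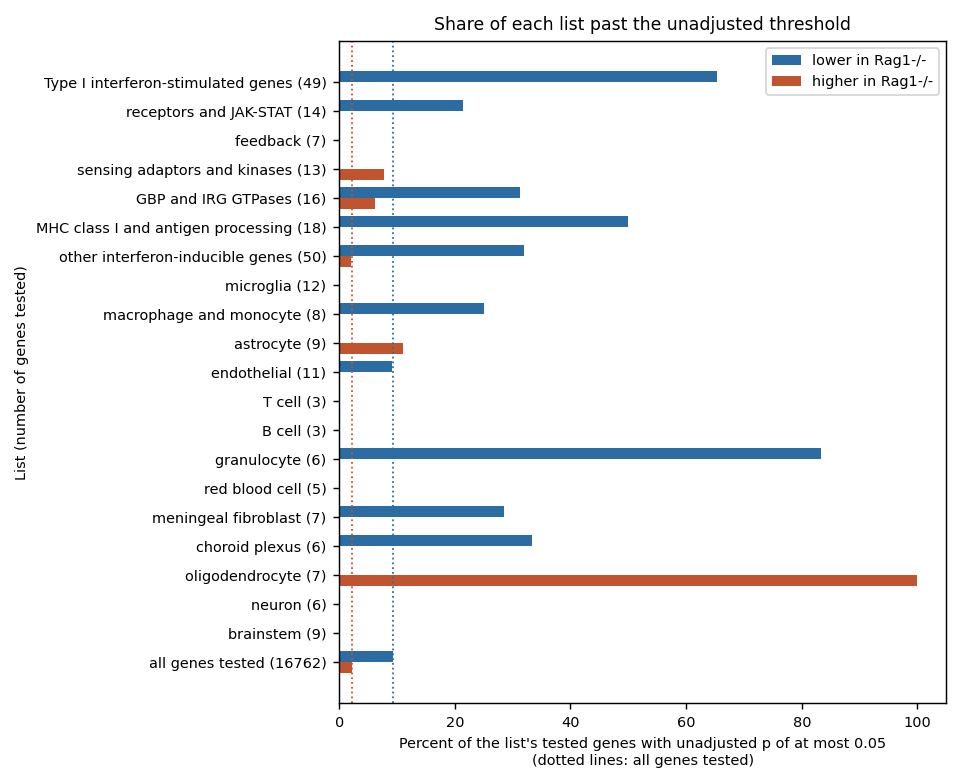
Bars give the percent of each list's tested genes that passed the unadjusted threshold of 0.05, lower (blue) or higher (orange) in the libraries labelled Rag1-/-, with the number tested in parentheses. Dotted lines mark the shares among all tested genes (9.29% and 2.27%). The interferon-stimulated genes reach 65.3% lower and 0% higher, the granulocyte markers 83.3% lower and the oligodendrocyte markers 100% higher.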

How the data were processed

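Per the labels and the study's methods, reads were demultiplexed with bcl2fastq, aligned to mm10 with STAR 2.5.3a and counted on RefSeq genes in Partek Flow, and the authors deposited CPM, that is, counts per gene relative to the library's total, with a minimum of 0.0001 in each library. Whether genes were filtered before deposit, the strand setting and the read length are not given in the sources used here. Among low values, 86.3% to 88.1% were whole multiples of the CPM of 1 read, within 0.1 read, which is too few to recover reads, and counts were not modelled.

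Fold changes are on the log2(CPM + 0.1) scale and are too small for rare transcripts. Genes averaging 0.1 CPM or more (16762) entered limma-trend (limma 3.58.1, R 4.3.3), the model the methods name, with Benjamini-Hochberg adjustment over all of them. The script was tested on simulated data. Unadjusted p of at most 0.05 is the threshold of the study's methods, whose fold-change filter was not applied. Gene positions (mm10) come from the deposited annotation, whose stop was moved back by 1 base. The members and lists were chosen with earlier results of these data known, as was the Xist term. Values in every library are given for members with an unadjusted p of at most 0.05, the 5 with the highest mean CPM and the 5 with the largest p, and others where a role group is described. Some genes of the lists are not reported here by name. Exon lengths and shared 50-base stretches were read from GENCODE M21 transcripts. The alternatives were other pseudocounts, filters, scalings and variance models, the Xist term, blocking on replicate number and omitting each library in turn.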

Additional observations from a re-analysis of the deposited data

How the results depend on the processing

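The number of interferon-stimulated genes with an adjusted limma p under 0.05 was 2 (Ifit3 and Oasl2). It was 3 with pseudocount 1 (Usp18 added) and 0 with pseudocount 0.01, without the low-value filter, with a filter at 1 CPM, with quantile normalization, with median-of-ratios rescaling, without the limma trend, with ordinary per-gene variance, with the Xist term and with the replicate block. Over all tested genes there were 8 adjusted calls, 134 with the Xist term, 0 with ordinary variance, 9 with pseudocount 1 and 2 to 6 in the other 7 fits. In the 9 fits without an adjusted member 24 to 32 members were lower at an unadjusted p of at most 0.05, as were 3.82% (quantile normalization) to 12.3% (Xist term) of all tested genes. Leaving out 1 library gave from 0 to 3 adjusted calls, and the 3 (Ifit3, Ifit3b and Oasl2) came without WT replicate 3, where 24 of all tested genes passed. The only call left without replicate 2 labelled Rag1-/- was Ifit3. For these differences between settings the cause was not tested.

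The number lower at the unadjusted threshold was 32 and stayed between 24 (Xist term) and 33 over the 16 alternatives, and it was 29 with the replicate block (6.59% of all tested genes). Same-numbered samples gave correlations of 0.0926, -0.220 and -0.0183 in their deviations, so they share only a number. With a library left out it was 26 to 33 (5.18% to 9.73% of all tested genes). Of the 32 genes, 21 passed in every alternative in which they were tested, a count not made over all tested genes. The other 11 were Cmpk2, Dtx3l, Ifih1, Isg15, Lgals9, Ly6e, Mx1, Oasl1, Parp9, Rtp4 and Trim30a. No member was higher at this threshold in any alternative but 1: with a library left out the number was 0 to 1, and the 1 was Rsad2 without replicate 2 labelled Rag1-/-. The number of separated members was 33 (14.4% of all tested genes), and 31 of the 41 tested with a mean of at least 1 CPM (15.5%). Without WT replicate 3 it was 40, where 23.3% of all tested genes were separated. The median log2 fold change of -0.41 was -0.30 with pseudocount 1 and -0.34 with quantile normalization.

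The log2 fold change was under 0 in every alternative for 39 members and changed sign for 9. These counts were not made over all tested genes, of which 67.7% were lower in direction in the main fit. With the Xist term it was 0.31 for Oas1a, 0.25 for Oas2, 0.012 for Eif2ak2, 0.0077 for Samd9l and 0.071 for Sp100, and with quantile normalization 0.0026 for Mx2 and 0.019 for Sp100. With a library left out, it ranged from -0.46 to 0.10 for Oas1b, from -0.44 to 0.0066 for Oas2, from -0.15 to 0.23 for Oas3, from -0.30 to 0.0082 for Mx2, from -0.35 to 0.0018 for Dhx58 and from -0.15 to 0.029 for Sp100. None of these passed the unadjusted threshold in limma-trend with all 6 libraries. Of 482 values of single members under the other alternatives, 30 no longer passed and 3 newly passed, and with a library left out 27 and 9 of 294.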
